A study of Oncorhynchus kisutch with 9 samples.

Results

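The livers of ration-fed growth hormone transgenic coho salmon (Oncorhynchus kisutch) were compared with those of non-transgenic controls on 3 of the 9 cDNA arrays of the series, each with a Cy3 and a Cy5 channel. The arrays were chosen by their dye labels, as those with the ration-fed transgenic pool (R) in one channel and the control pool (C) in the other. On arrays 1 and 2 the ration-fed pool was labelled with Cy5, and on array 3 with Cy3. Each pool was made of equal amounts of liver RNA from 5 adult fish, and 20 ug of pooled RNA entered each labelling. The other 6 arrays compared a full-ration transgenic pool (T) with C or with R, 3 arrays each. The growth hormone construct, its promoter, the amounts fed and the sex of the fish were not given in the sources used here. There was 1 pool a condition, so no value below measures how fish of a condition vary, and no test of the condition was possible. All SDs are over the 3 hybridisations of the same RNA.

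Growth hormone is made by the pituitary and acts on the liver through its receptor, where it raises the output of insulin-like growth factor and shifts lipid, carbohydrate and protein metabolism. Salmon with an added growth hormone gene eat and grow more than their non-transgenic relatives. Full-fed transgenic and control fish thus differ both in hormone and in food intake, and the ration-fed group adds transgenic liver under another feeding label. The amounts fed are not known here, so R over C cannot be read as a difference at matched food intake. A pooled liver sample mixes hepatocytes with blood, vessel and connective tissue cells. In such bulk RNA a change in the number of cells of a type and a change in RNA per cell cannot be told apart.

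The array held 8736 spots, called features here, with a ratio for every one of them on every array. The identities that could be used covered 8 features, which are 4 genes with 2 neighbouring spots each. Of 13 hepatocyte marker genes, 0 carried a name on the array, so the tissue label could not be checked against them. The growth hormone and insulin-like growth factor list had 0 of 23 members named, so the transgene could not be checked either. Most of what follows therefore concerns spots known only by their place on the slide.

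Values are log2 ratios, each array being centred on its own median. Every array was turned to R over C by its dye labels. Arrays 1 and 2 were averaged first and then averaged with array 3, which gives a dye-balanced mean in which a constant dye effect of a spot cancels. The sources used here do not say which dye is the numerator of the deposited ratios. Positive values are therefore called direction 1 and negative values direction 2. Direction 1 means higher in the ration-fed transgenic pool if the ratios are Cy5 over Cy3, and higher in the control pool if they are Cy3 over Cy5.

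The strongest pattern on single arrays followed the dyes. On array 1, 1004 features were past 2-fold in direction 1 and 23 in direction 2, and on array 2 these counts were 1172 and 36. On array 3, with the dyes exchanged, 17 were past 2-fold in direction 1 and 538 in direction 2. Across features, which are not independent, the turned values of arrays 1 and 2 correlated at 0.84 and those of array 3 with either at -0.53. All 9 arrays shared this trend, so the main counts and values are also given with the trend removed by a lowess curve of each array on the mean of the 9 arrays. With the trend removed, the counts past 2-fold in directions 1 and 2 were 52 and 41 on array 1, 59 and 43 on array 2, and 51 and 40 on array 3. Arrays 1 and 2, of like dye order, then correlated at only 0.38, and array 3 correlated with arrays 1 and 2 at 0.52 and 0.54. Removing the trend takes for granted that ratios follow the dye labels, and this in itself favours such positive values of array 3 with the others.

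Few features separated the ration-fed transgenic pool from the control pool. A feature was called when its dye-balanced mean was at least 2-fold and its 3 arrays shared one sign, and 80 of 8736 features (0.916%) were called. Direction 1 held 58 of them (0.664%) and direction 2 the other 22 (0.252%). With the dye trend removed 80 features were called again, 49 in direction 1 (0.561%) and 31 in direction 2 (0.355%). Both settings had 70 of these features in common. Direction 1 thus held 72.5% of the calls, and 61.2% when the trend was removed. Without array 3, which leaves the dyes uncancelled, 1060 features passed, and 81 once the trend was removed. Over all features the median size of the dye-balanced difference was 0.14 on the log2 scale, and among called features the median was 2.40-fold. By the same rule 2.54% of features were called in T over C and 0.996% in T over R.

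More spots were called in direction 1, but the largest differences lay in direction 2. At 1.5-fold or more, 197 features passed (2.26%), 150 in direction 1 and 47 in direction 2. At 3-fold or more the counts were 2 and 8, at 4-fold 0 and 4, and at 5-fold 0 and 2. All these are counts of spots, and neighbouring spots are read below as duplicates of a probe, so separate probes are fewer. The 2 features of direction 1 at 3-fold were both spots of the pair starting at 1011001. The 8 of direction 2 were the spots of the pairs ranked 1 to 4 by size, and the 2 at 5-fold were both spots of the pair starting at 10010303. The highest single feature reached 5.48-fold in direction 2 and 3.71-fold in direction 1. Removal of the dye trend gave counts in directions 1 and 2 of 132 and 128 at 1.5-fold (2.98% together), 2 and 9 at 3-fold, 0 and 6 at 4-fold, and 0 and 2 at 5-fold. The excess of direction 1 at 1.5-fold was thus absent when the trend was removed, whereas the excess of direction 2 from 3-fold upward was present in both settings. Without array 3 the 3-fold counts were 73 and 3 on centred arrays, but 2 and 10 once the trend was removed, and leaving out array 1 or 2 gave at most 3 in direction 1 and at least 8 in direction 2 in either setting.

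Calls were concentrated at one end of the dye trend. The features were ordered by the mean of the 9 centred arrays before turning, in which the differences between pools cancel if the ratios follow the dyes. The order was cut into 5 equal parts, or quintiles. In the upper 2 quintiles 78 of 3494 features (2.23%) were called, against 2 of 5242 (0.038%) in the lower 3 quintiles. The 2 calls in the lower quintiles were both spots of a single pair. The median size of the R over C difference rose from 0.09 in the lowest quintile to 0.23 in the highest, and with the dye trend removed from 0.08 to 0.19. On centred arrays the median SD over arrays was 0.47 in the lowest quintile, 0.23 in the middle one and 1.02 in the highest. The arrays thus differed most where most calls lay. With the trend removed this SD was 0.17 in the lowest quintile and 0.13 in the highest. Once the trend was removed the upper quintiles again held 78 of the 80 calls. Spot brightness was not analysed here.

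**Figure D1:**
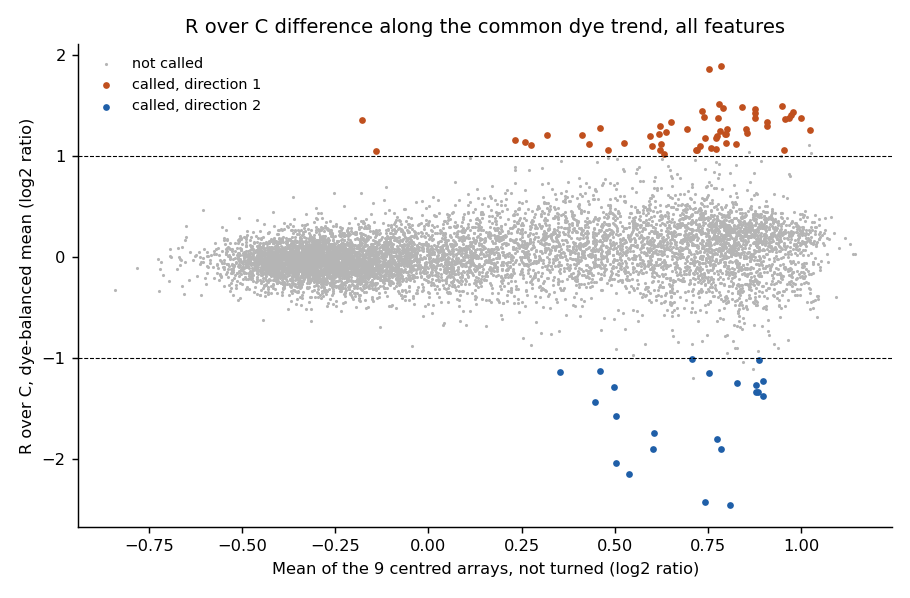
Each point is 1 of 8736 features, with the mean of the 9 centred arrays before turning on the x axis and the dye-balanced R over C log2 ratio on the y axis. Dashed lines mark 2-fold, coloured points are the 58 features called in direction 1 and the 22 called in direction 2, and 78 of the 80 lie in the upper 2 quintiles of the x axis.

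The same pool difference was also available without the 3 R and C arrays. Subtracting T over R from T over C leaves R over C, measured on the 6 other arrays with the same RNA pools, so this second value bears on hybridisation and not on fish. All 80 called features lay on the same side by the indirect value, and 68 of them (85.0%) were again at least 2-fold. Of all features, 1.2% were at least 2-fold by the indirect value. The share of all features on the same side by both values was not counted, so the same-side count has no background. The 80 features came from 45 pairs of neighbouring spots, read below as duplicates, and are not 80 separate cases. The ratio of the indirect to the direct log2 value had a median of 0.98 over the called features, with quartiles of 0.89 and 1.08 and a range of 0.32 to 1.56. The SD of the difference between both values was 0.24 over called features and also 0.24 over the whole table. Under removal of the dye trend (1.08% of features at least 2-fold by the indirect value) all 80 again lay on the same side, 64 of them (80.0%) at least 2-fold.

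**Figure D2:**
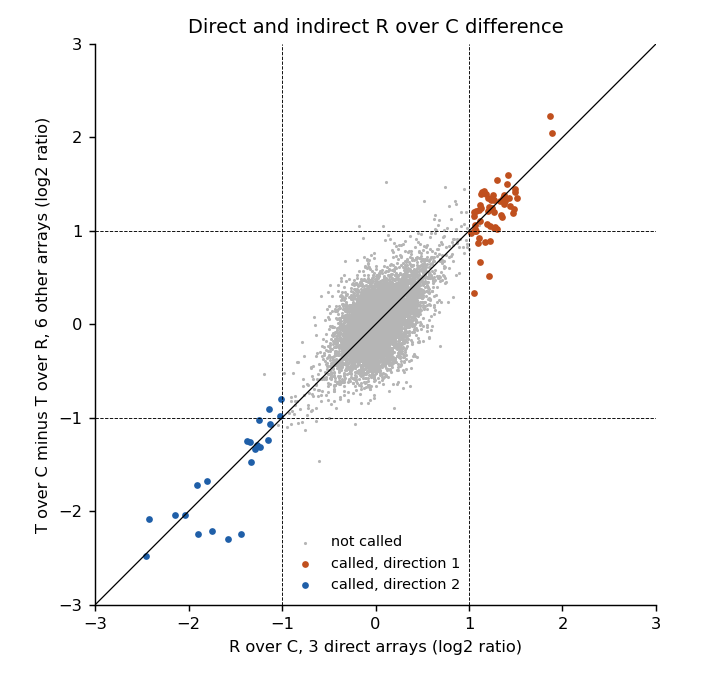
Each point is 1 feature, with the R over C log2 ratio of the 3 direct arrays on the x axis and T over C minus T over R from the 6 other arrays on the y axis. The solid line marks equal values, dashed lines mark 2-fold, and the 80 called features (coloured by direction) lie on the same side by both measures.

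Spots that sit side by side, the first in an odd column, were read as duplicates of the same probe. The 8 named features bear this out for 4 pairs, each of which carries 1 gene. Over the 4368 pairs the spots of a pair correlated at 0.80 in their dye-balanced means, against 0.05 for neighbours shifted by 1 spot. Both spots were called at 35 pairs, 26 in direction 1 and 9 in direction 2, and a single spot at 10 pairs. In each of these 10 pairs the other spot lay on the same side, with a size of 0.29 to 1.11. Within the 35 pairs, which were chosen because both spots passed the same rule, the spots differed by a median of 0.06 and at most by 0.30. Over all 4368 pairs the SD of the difference between the spots was 0.17. Both spots were called, once the dye trend was removed, at 34 pairs, 21 in direction 1 and 13 in direction 2. The calls came from 28 of the 48 print blocks, at most 9 of the 182 spots in a block.

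Of the direction 2 pairs, 2 exceeded 4-fold. The pair starting at spot 10010303 stood at -1.74, -1.65 and -3.18 on arrays 1, 2 and 3, a dye-balanced mean of -2.44 ± 0.86 (SD, n = 3 arrays) or 5.42-fold. All 3 arrays were past -1, and its spots gave -2.46 and -2.42. After removal of the dye trend the arrays stood at -2.63, -2.59 and -2.50, a mean of -2.55 ± 0.07. The pair starting at spot 7040603 stood at -1.39, -1.76 and -2.61, a mean of -2.09 ± 0.62 or 4.27-fold. Its values with the trend removed were -1.94, -2.42 and -2.23, a mean of -2.21 ± 0.24. The probes of both pairs are unnamed here.

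In direction 1 the pair with the largest difference started at spot 1011001 and stood at 2.78, 2.99 and 0.87 on arrays 1, 2 and 3. Its dye-balanced mean was 1.88 ± 1.16 (SD, n = 3 arrays), which is 3.67-fold, and array 3 was the low one. After removal of the trend they stood at 1.90, 2.06 and 1.54, a mean of 1.76 ± 0.26. The pair starting at spot 1030313 stood at 2.23, 2.26 and 0.75, a mean of 1.498 ± 0.867 or 2.82-fold. Without the trend it stood at 1.33, 1.32 and 1.44, a mean of 1.38 ± 0.06. The 2 pairs of direction 1 were thus smaller than the 2 of direction 2 in both settings.

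Over all called pairs, the 4 above included, the arrays differed by dye order. In direction 1 the 26 pair means ran from 1.06 to 1.88 with a median of 1.23. Array 3 was low for direction 1, with 0.20 to 1.16 toward the call and a median of 0.50, against medians of 2.04 and 2.03 on arrays 1 and 2. In direction 2 the 9 sizes ran from 1.21 to 2.44 with a median of 1.505, and here array 3 was the high one, with a median of 2.33 toward the call against 0.93 and 0.91. After the dye trend was removed the 3 arrays had medians toward the call of 1.13, 1.21 and 1.13 in direction 1 and of 1.82, 1.66 and 1.49 in direction 2. The median SD over arrays in direction 1 fell from 0.93 to 0.14 when the trend was removed, and in direction 2 from 0.88 to 0.13. Over all single features it fell from 0.44 to 0.17. Removing the trend takes out a difference between dye orders, so such a fall is built into that step. Among the called pairs the widest scatter after removal, 0.62, was at the direction 1 pair ranked 16, which stood at 0.87, 2.02 and 1.04. It is also the pair whose spots were the 2 calls of the lower quintiles, and it is pointed out after its values were seen.

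**Figure D3:**
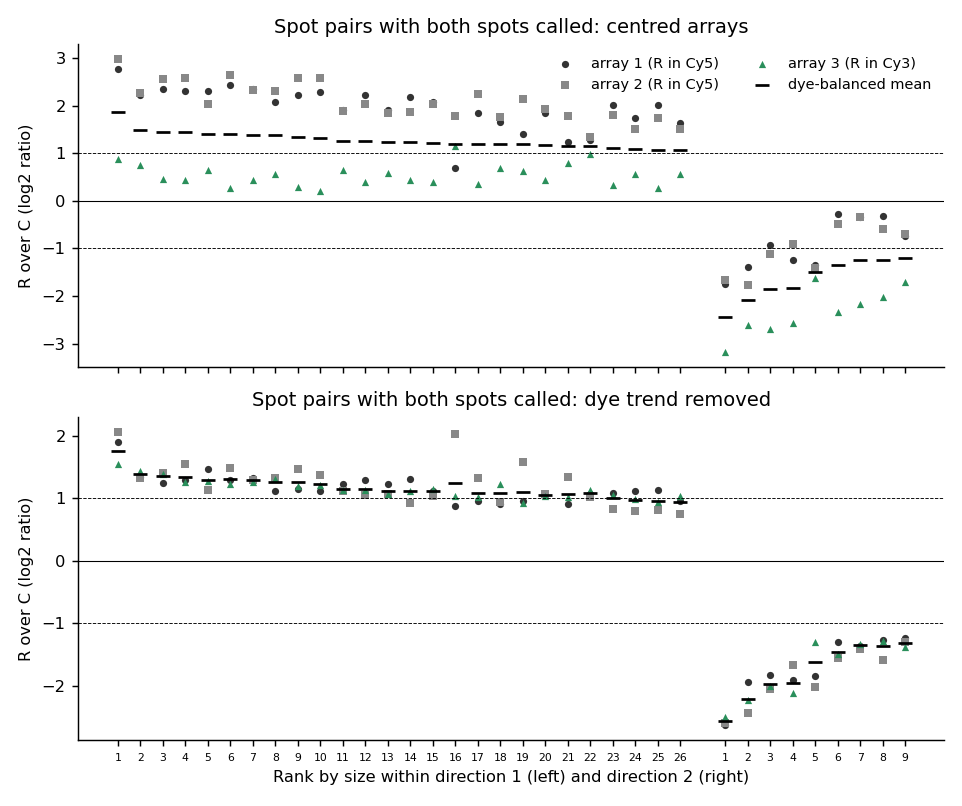
The 35 spot pairs with both spots called are ordered by size within direction 1 (26 pairs) and direction 2 (9 pairs), with the R over C log2 ratio on the y axis for each array (symbols) and as the dye-balanced mean (bar). In the upper panel array 3 sits below arrays 1 and 2 at most pairs of direction 1 and below them at the 9 pairs of direction 2. In the lower panel, with the dye trend removed, the 3 arrays lie close together at most pairs, and farthest apart at the direction 1 pair ranked 16.

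The called pairs were set beside their values in T over C and T over R, which share pools with R over C and with each other, so the 3 values of a pair are not independent. At pair 10010303 the T over C value was -2.69 ± 0.98 and the T over R value -0.41 ± 0.91 (SD, n = 3 arrays). At pair 7040603 they were -2.29 ± 0.66 and -0.25 ± 0.58. Both transgenic pools thus stood far from control on the same side at these pairs, and T over R was smaller in size than T over C. Pair 1011001 had 1.94 ± 0.81 in T over C and -0.20 ± 0.89 in T over R, and pair 1030313 had 1.37 ± 0.96 and 0.08 ± 0.87. With the trend removed the T over R values of the 4 pairs were -0.46 ± 0.11, -0.41 ± 0.16, -0.25 ± 0.12 and 0.04 ± 0.06. Over all features the median T over R size in that setting was 0.15, and all but the last of these values exceeded it in size.

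Among the 26 direction 1 pairs, T over C was at least 2-fold on the same side at 23, and T over R was under 1.5-fold in size at 20. These counts were 19 and 19 once the dye trend was removed. Among the 9 direction 2 pairs, T over C was at least 2-fold on the same side at 5 and T over R under 1.5-fold at 5, and at 6 and 5 once the trend was removed. Of all 4368 pairs, 2.88% were at least 2-fold in T over C and 94.2% under 1.5-fold in T over R (2.11% and 95.2% once the trend was removed). Called pairs were thus under 1.5-fold in T over R less often than all pairs, and such a value is no mark of them. The shared pools cannot be told apart from a common difference in T over C. Other pairs took different values. In direction 1, the pairs ranked 3 and 4 had R over C values of 1.45 and 1.45, T over C values of 2.56 and 2.60, and T over R values of 1.09 and 1.20. The full-ration pool was there the farthest from control.

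At 5 called pairs, 2 in direction 1 and 3 in direction 2, T over C was under 1.5-fold in size, and at 4 once the dye trend was removed, 2 in each direction. Over all features the median T over C size was 0.21 on the log2 scale, and 0.16 once the trend was removed. The highest decile of features began at 0.62, and at 0.54 once the trend was removed. Most features were thus under 1.5-fold in T over C, a larger share than among the 35 called pairs. The exact share was not counted. Such a value is by itself no mark of these pairs. The direction 2 pairs ranked 6 and 7 had R over C values of -1.36 ± 1.13 and -1.25 ± 1.05, against T over C values of -0.27 ± 1.07 and -0.31 ± 1.11. Once the dye trend was removed, the R over C values were -1.46 ± 0.13 and -1.35 ± 0.04, and the T over C values -0.35 ± 0.01 and -0.39 ± 0.06. By their identifiers, both pairs sat at row 13 and column 7 of adjoining print blocks. A shared row and column was common, as 21 of the 35 called pairs shared theirs with another called pair, some of opposite direction. Whether the pairs ranked 6 and 7 hold the same probe is not known here, so they may not be separate cases. The direction 1 pair ranked 16 had an R over C value of 1.20 ± 0.54 and a T over C value of -0.13 ± 0.44, and 1.24 ± 0.62 and -0.04 ± 0.26 with the trend removed. The direction 1 pair ranked 19 had an R over C value of 1.20 ± 0.77 and a T over C value of 0.38 ± 0.39, and 1.09 ± 0.37 and 0.13 ± 0.21 without the trend. The direction 2 pair ranked 9 had -1.21 ± 0.58 and -0.39 ± 0.70, and -1.32 ± 0.08 and -0.65 ± 0.09 without the trend, where it was past 1.5-fold in T over C. In these 5 pairs T over R lay on the side opposite to R over C, at 1.09, 0.99, -1.28, -0.47 and 0.81. A large R over C value beside a small T over C value implies that side wherever the 3 comparisons add up, so it is no further observation. These pairs were pointed out after their values were seen, and no test of one comparison against the other was made.

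**Figure D4:**
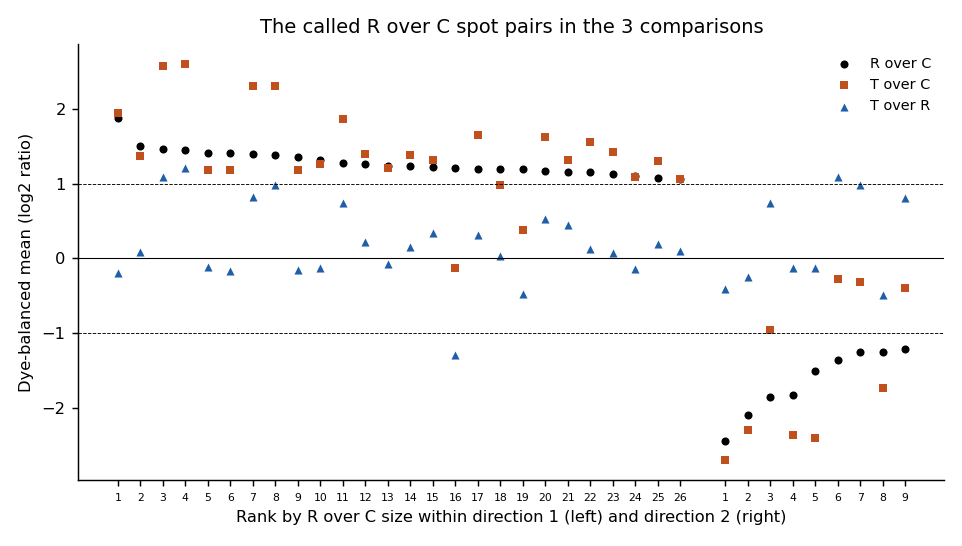
The 35 called R over C spot pairs are ordered as by size within each direction, with their dye-balanced log2 ratios in the 3 comparisons on the y axis. At most pairs T over C lies near or beyond R over C and T over R lies between the dashed 2-fold lines, whereas the direction 2 pairs ranked 6, 7 and 9 and the direction 1 pairs ranked 16 and 19 have T over C values under 1.5-fold.

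None of the 4 named genes was called, and on centred arrays at least 38.9% of all features were as far from 0 as each of them. Here and below, the value of a gene is the mean of its 2 spots, whereas such shares count single spots. Along the dye trend, tap1 and pparg lay in the middle quintile, where 1 of 1747 features (0.057%) was called. The genes col1a2 and pck2 lay in the highest, where 51 of 1747 (2.92%) were called. Shares over all features take no account of this. The gene tap1 encodes a subunit of the transporter that loads peptides for class I major histocompatibility molecules. It stood at -0.23, -0.33 and -0.03 on arrays 1, 2 and 3, a mean of -0.15 ± 0.15 (SD, n = 3 arrays). All 3 arrays lay on one side, and with the trend removed they stood at -0.09, -0.14 and -0.12, a mean of -0.12 ± 0.02. Its 2 spots gave -0.03 and -0.21 in that setting, so the SD over arrays leaves out how its spots differ. An R over C difference at least as large as the mean was seen at 52.0% of all features in that setting, so tap1 did not stand apart in size.

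The gene col1a2 encodes an alpha chain of type I collagen, the chief fibre of connective tissue. It stood at 1.01, 0.30 and -1.02, a mean of -0.18 ± 1.03, so the arrays of opposite dye order lay on opposite sides. Without the trend col1a2 stood at 0.14, -0.62 and -0.35, a mean of -0.30 ± 0.39, and the indirect value in that setting was -0.35. The SD exceeded the mean in both settings, and 16.4% of all features were at least as far from 0 with the trend removed.

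The remaining genes belong to metabolism. The gene pck2, for the mitochondrial form of the gluconeogenic enzyme phosphoenolpyruvate carboxykinase, stood at 0.90, 0.54 and -0.74, a mean of -0.01 ± 0.86. Its mean without the trend was -0.12 ± 0.22, and array 2, at -0.41, lay apart from the others at -0.003 and -0.04. All 3 arrays of pck2 lay on one side in that setting, array 1 close to 0, and the indirect value was -0.34. The gene pparg, for a nuclear receptor that governs fat storage in mammals, stood at 0.20, -0.63 and -0.12, a mean of -0.17 ± 0.42. Without the trend pparg stood at 0.29, -0.51 and -0.18, a mean of -0.14 ± 0.41. For both genes the arrays scattered by more than the mean.

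Each of these genes was the only named member of its list. They were 1 of 11 genes of gluconeogenesis and glycolysis, 1 of 13 of lipid storage and synthesis, 1 of 9 of collagen and matrix, and 1 of 10 of antigen presentation and immunity, with 0 called in each. The list of iron, oxygen transport and stress genes had 0 of 10 members named. Of the markers of other cells that liver can hold, 0 of 3 for erythrocytes and 0 of 5 for exocrine pancreas were named. For stroma 1 of 3 was named, which is col1a2, and for leukocytes 1 of 4, which is tap1.

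**Figure D5:**
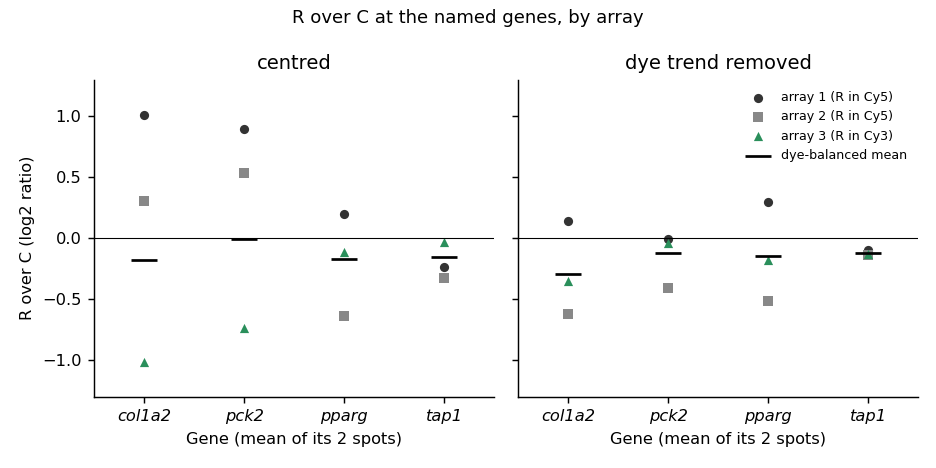
R over C log2 ratios (y axis) of the 4 named genes, each the mean of its 2 spots, are shown by array (symbols) and as the dye-balanced mean (bar). On centred arrays (left) col1a2 and pck2 have arrays 1 and 2 above 0 and array 3 below it, and with the dye trend removed (right) no gene is beyond -0.30 in its mean.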

How the data were processed

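Pooled liver RNA was hybridised to salmonid cDNA arrays of a single slide batch with Cy3 and Cy5 labels, per the labels' protocols. The authors deposited a value per spot and array, read as log2 ratios of both channels. Of 78624 values, 995 were the log2 of a fraction of integers whose denominator was 1000 or less (8 after a small random shift, and for base e 15 against 14). The numerator, scanner, quantification, background treatment and filters were not given in the sources used here. No intensities were analysed here, and the number of arrays limits the precision.

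Arrays were centred, turned by dye label and averaged by dye order with Python 3.11.15 and pandas 2.3.3. The dye trend was removed with lowess (statsmodels 0.14.6, fraction 0.3, 3 iterations) on the 9-array mean. The calculation was tested on simulated data. Members, lists and settings were chosen with earlier results of these data known. Named were all genes with 1 symbol in the platform annotation (8 features, 0 with several symbols, 8728 unlisted) and the 2 largest pairs in each direction with both spots called. Of the 4 genes, 0 matched the coho gene table by identifier and 4 by symbol. Print blocks and pairs were read from the spot identifiers. Alternatives covered centring, scaling, averaging, thresholds, the indirect value and each array left out.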

Additional observations from a re-analysis of the deposited data

How the results depend on the processing

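The main counts were 80 features and 35 pairs, with 72.5% of called features in direction 1. At 1.5-fold they were 197 and 68, and with 2-fold required on each array 7 and 3, with 14.3% in direction 1. The share was 84.0% with a plain mean of the 3 arrays. With 1 array left out the counts ran from 80 to 1060 features and from 34 to 453 pairs, with 67.5% to 98.8% in direction 1. The highest of each came without array 3, the 1 array of opposite dye order, which leaves the dyes uncancelled by construction. When the dye trend was removed the share was 61.2%, and leaving out 1 array then gave 80 to 86 features, 30 to 35 pairs and 60.0% to 60.5%. Uncentred values, which moved the median of all features by 0.10, gave 90 features. Centred print blocks, equalised spread, the loop estimate, the indirect value and no requirement on sign stayed within 1.5 times the main counts. Of 32 alternative values of the 4 named pairs, 0 lay on the other side of 0. These pairs were picked as the largest among those with one sign on all 3 arrays. A plain mean or an array left out thus could not change their side, and the count is no test of them. Of 32 alternative values of the 4 genes, which were not picked by value, 7 lay on the other side of 0. They include col1a2 at 0.66 and pck2 at 0.72 without array 3. These 7 lay less than 1 SD from the main value. That SD is over the same 3 arrays and holds the difference between dye orders, so it is no independent measure of such a shift. No paired analysis was possible because an array number is only the name of a hybridisation, and all 3 hold the same pools. A filter on dim spots and another background correction were not run for want of intensities, nor was a natural log scale, since the values pointed to base 2. The 3-fold counts with an array left out were chosen after seeing the data. Signal over background is unknown, so how far dim spots limit the ratios is unknown.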
